A study of Homo sapiens with 12 samples.

Results

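The genes described here are 42 genes of DNA replication and S phase, out of 58051 genes counted in each library of a study of miR-29 in human renal cell carcinoma lines. They encode origin licensing factors, the MCM2 to MCM7 helicase, its activators, the replicative polymerases and primase, the PCNA clamp and its loaders, Okazaki fragment enzymes, nucleotide-supply enzymes, chromatin assembly factors and 2 fork-protection proteins. They were found by symbol and were chosen as a group because of their measured change between treated and control libraries in all 3 lines. Their changes are therefore given as a description of these libraries, without p-values, and are not independent evidence. All 42 were present in the count tables and all 42 passed the filter on low counts in A-498 and in ACHN.

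The study compared 786-O cells given a miR-29 mimic with 786-O cells given a control mimic (1 library each), A-498 cells given a miR-29 mimic with A-498 cells given a control mimic (2 libraries each), and ACHN cells given a miR-29 inhibitor with ACHN cells given a control inhibitor (3 libraries each). In every group the agent was transfected at 10 nM and RNA was taken after 48 h, so the controls also received a transfected oligonucleotide. 786-O and A-498 are renal carcinoma lines that lack functional VHL, whereas ACHN was grown from a metastatic renal carcinoma. Each group comes from 1 established line kept in culture. The study's methods state that further A-498 libraries of the mimic experiment were left out because they may have been mislabelled. The labels name no member of the miR-29 family, but a supplement of the study names the mimic used in 786-O as one of miR-29b. The mature mimic sequence given in the study's methods holds the seed of the family but is not identical to any of the strands printed below. The study's methods call the replicates biological, without saying how they were grown, so the p-values measure the spread between these libraries. The libraries held 39919554 to 70027392 reads in genes.

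DNA replication starts at origins, where the origin recognition complex, CDC6 and CDT1 load the MCM2 to MCM7 ring onto DNA before S phase. CDC45 and the GINS complex then join the ring to form the active helicase, polymerase alpha with primase lays down primers, and polymerases delta and epsilon extend them on the PCNA clamp, which the RFC loader places on DNA. Many of these genes are transcribed in a cell-cycle-dependent way through E2F sites in their promoters, and their mRNA levels in a culture follow the share of cells that are cycling. In these bulk libraries, fewer cells in S phase and less RNA per cell cannot be told apart.

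The miR-29 family is printed first because all 3 comparisons turn on it. The mature sequences are those of RefSeq (GRCh38.p14), with the seed, nucleotides 2 to 8, in capitals. The seed is the same in all 3 members, so they share 1 target match, TGGTGCT.
hsa-miR-29a-3p: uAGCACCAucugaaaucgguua
hsa-miR-29b-3p: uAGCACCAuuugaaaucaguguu
hsa-miR-29c-3p: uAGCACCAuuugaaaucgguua

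Few of the 42 genes carried a seed match. In the first 2000 bases of the longest annotated 3′ UTR, 2 of the 42 (4.76%) held TGGTGCT, against 2057 of 19245 protein-coding genes (10.7%). Of 61 other replication genes, described further below, 11 (18%) held it. One of the 2 members was GINS1, a GINS complex subunit, with a match 1771 bases after the stop codon. The other was RFC4, a clamp loader subunit, with a match 5 bases after the stop codon of an isoform whose 3′ UTR is 143 bases long. The longest annotated UTR may not be the one these cells express, and the shares were not adjusted for UTR length. The shorter match to nucleotides 2 to 7, GGTGCT, was present in 8 of the 42 (19%) against 25.2% of all genes and 20 of the 61 (32.8%). GINS2, another GINS subunit, held 3 of these shorter matches, at 490, 1546 and 1762 bases after its stop codon. The sites below are shown because the 2 genes differed in the sign of their change in ACHN, with the matched bases in capitals (GENCODE v44 on GRCh38, read on the strand of the gene).
GINS1, chr20:25447762-25447768, plus strand: ggcgtgagcctTGGTGCTggcccagtgta
GINS2, first match, chr16:85677717-85677722, minus strand: caatgctgaccGGTGCTtatcctctaag
GINS2, second match, chr16:85676661-85676666, minus strand: aaaagcagtggGGTGCTgtctggggagc
GINS2, last match, chr16:85676445-85676450, minus strand: ccataatttaaGGTGCTgttcagacttg

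Promoter sequence was not used to choose the genes, and the matches below are counts, with no test of enrichment. RefSeq promoters (GRCh38.p14, 250 bases before to 50 bases after the annotated start) were found for 37 of the 42 genes; MCM4, MCM5, GINS4, POLD3 and DSCC1 had no entry. A core E2F match, TTCGCGC or TTGGCGC on either strand, was present in 15 of the 37 promoters (40.5%). The same match was present in 1397 of 21613 promoters of protein-coding genes (6.46%) and in 9 of 49 promoters of other replication genes (18.4%). With the longer spelling TTTCGCGC or TTTGGCGC, which contains the core, the counts were 10 of 37 (27%) and 330 of 21613 (1.53%). A CCAAT box (CCAAT, either strand), a common promoter element bound by NF-Y, was present in 21 of 37 promoters (56.8%), in 27 of the 49 promoters of other replication genes (55.1%) and in 34.9% of those of protein-coding genes. The TTTGAA element of many G2 and M phase promoters was present only in RRM1 (1 of 37, 2.7%, against 12.4%). The median GC content was 65.7% in the 37 promoters and 62.3% in all protein-coding promoters, and the motif shares were not corrected for it.

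Promoters of 4 genes with different changes are shown, with the E2F and CCAAT matches in capitals, each read 5′ to 3′ on the strand of the gene. MCM2 held 2 overlapping E2F matches just after the start and no CCAAT box, CDC6 held 1 E2F match and 3 CCAAT boxes, GINS2 held 1 CCAAT box and RRM2 held 3. These letters were searched as exact words, and a promoter without them may hold other E2F sites.
MCM2 promoter, chr3:127598161-127598460, plus strand: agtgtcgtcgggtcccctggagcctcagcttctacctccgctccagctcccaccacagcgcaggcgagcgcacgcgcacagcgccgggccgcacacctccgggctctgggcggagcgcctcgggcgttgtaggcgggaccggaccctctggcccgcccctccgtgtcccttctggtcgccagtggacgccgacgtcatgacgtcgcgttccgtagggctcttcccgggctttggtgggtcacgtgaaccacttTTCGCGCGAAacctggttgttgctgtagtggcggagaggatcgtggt
CDC6 promoter, chr17:40287629-40287928, plus strand: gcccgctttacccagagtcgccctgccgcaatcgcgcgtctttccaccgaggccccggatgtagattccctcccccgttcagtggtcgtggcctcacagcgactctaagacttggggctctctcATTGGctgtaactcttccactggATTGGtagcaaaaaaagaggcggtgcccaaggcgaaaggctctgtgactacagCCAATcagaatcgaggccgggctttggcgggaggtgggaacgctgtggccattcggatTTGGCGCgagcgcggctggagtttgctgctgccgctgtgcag
GINS2 promoter, chr16:85688905-85689204, minus strand: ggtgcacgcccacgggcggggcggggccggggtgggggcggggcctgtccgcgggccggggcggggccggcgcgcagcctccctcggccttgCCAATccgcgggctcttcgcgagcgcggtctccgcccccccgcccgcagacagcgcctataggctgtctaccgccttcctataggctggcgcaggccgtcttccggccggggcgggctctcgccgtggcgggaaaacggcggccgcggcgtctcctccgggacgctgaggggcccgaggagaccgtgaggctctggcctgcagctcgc
RRM2 promoter, chr2:10122489-10122788, plus strand: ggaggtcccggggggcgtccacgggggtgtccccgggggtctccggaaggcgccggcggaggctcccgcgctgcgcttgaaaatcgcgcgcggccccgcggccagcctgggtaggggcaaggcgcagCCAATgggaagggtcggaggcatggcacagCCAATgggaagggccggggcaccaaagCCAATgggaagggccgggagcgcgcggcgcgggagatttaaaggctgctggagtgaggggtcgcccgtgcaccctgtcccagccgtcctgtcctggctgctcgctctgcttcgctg

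**Figure D1:**
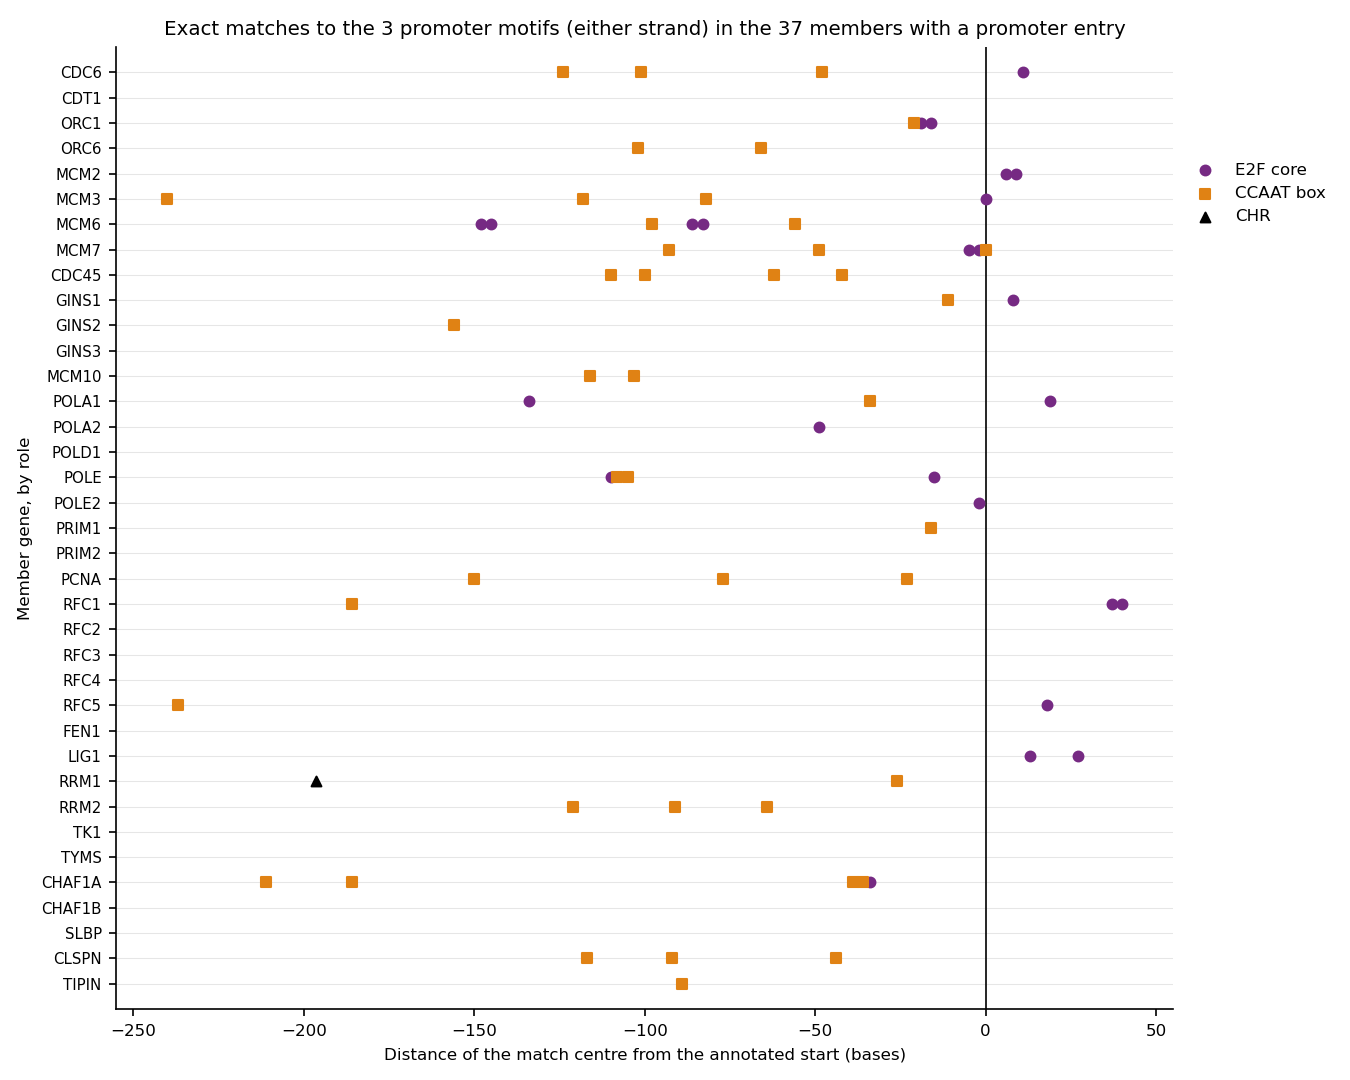
Positions of exact motif matches in the 37 promoters: the x axis is the distance of the match centre from the annotated start in bases (negative is upstream), the y axis lists the genes by role, and circles, squares and the triangle mark E2F core, CCAAT and TTTGAA (CHR) matches. E2F matches appear in 15 promoters, and 12 promoters have no mark at all.

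The libraries were checked before the members were described. Among genes with an average of at least 5 CPM (reads of a gene over the TMM-adjusted library total), genes with a TGGTGCT match had a median log2 change of -0.35 in 786-O and -0.32 in A-498 with the mimic and 0.12 in ACHN with the inhibitor, whereas genes with neither match were at 0.040, 0.018 and -0.022. Thus the treated libraries stood in the labelled direction in all 3 lines. Of the markers listed for renal lines, PAX8 (68.1 CPM or more) and VIM (1540 CPM or more) were present in every library. Others were not: CA9 did not exceed 0.319 CPM in 786-O and 0.168 CPM in ACHN, and PAX2 was at 1.2 to 1.27 CPM in A-498. CDH1 and EPCAM were near 0 in 786-O and A-498, and the summed markers of blood, endothelial, liver and islet cells did not exceed 1.15 CPM. The share of reads outside genes was 14.3% in the 786-O control and 18.3% in the 786-O mimic library. Reads in more than 1 gene made up 7.01% to 7.52% of reads in ACHN controls and 7.49% to 9.06% with the inhibitor. The part of these shares in the results was not tested.

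Most of the 42 genes were lower with the mimic in A-498, most were also lower with the inhibitor in ACHN, and most had a ratio above 0 with the mimic in 786-O. A gene was called when its adjusted p was under 0.05 in the quasi-likelihood test of edgeR (Benjamini-Hochberg over all genes tested). In A-498, 32 of the 42 were called lower and 2 higher, while 27% of all 19676 genes tested passed in the lower and 25.5% in the higher direction. In ACHN, 29 were called lower and 1 higher, while 14.4% of all 17904 genes tested were called lower and 17.3% higher. In 786-O, where 1 library against 1 allows no test, 4 genes were at least 1.5-fold lower and 5 at least 1.5-fold higher, while 19.2% and 15.4% of 20370 genes were past the same fold. Because the members were selected on these contrasts, nothing is read from the distance to those shares.

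The median log2 change of the 42 was -0.30 in A-498, where that of all genes tested was 0.0045. It was -0.24 in ACHN, against 0.0038 for all genes, and 0.16 in 786-O, against -0.015. In 786-O, 31 ratios were above 0 and 11 below, and the 95% counting interval lay above 0 for 26 genes, below 0 for 8 and held 0 for 8. These intervals cover counting error only. The summed level of the 42 genes was 2954.5 CPM in the 786-O control and 3302.5 CPM in the mimic library. In A-498 it was 3848 ± 58.1 CPM (SD, n = 2) with the control mimic and 3016 ± 5.73 CPM (n = 2) with the mimic. In ACHN it was 4109 ± 102 CPM (n = 3) with the control inhibitor and 3463 ± 70.0 CPM (n = 3) with the inhibitor. The sum was thus lower in the treated libraries of A-498 and ACHN by more than the spread between libraries, although the mimic and the inhibitor are opposite treatments, and higher in the single treated library of 786-O.

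**Figure D2:**
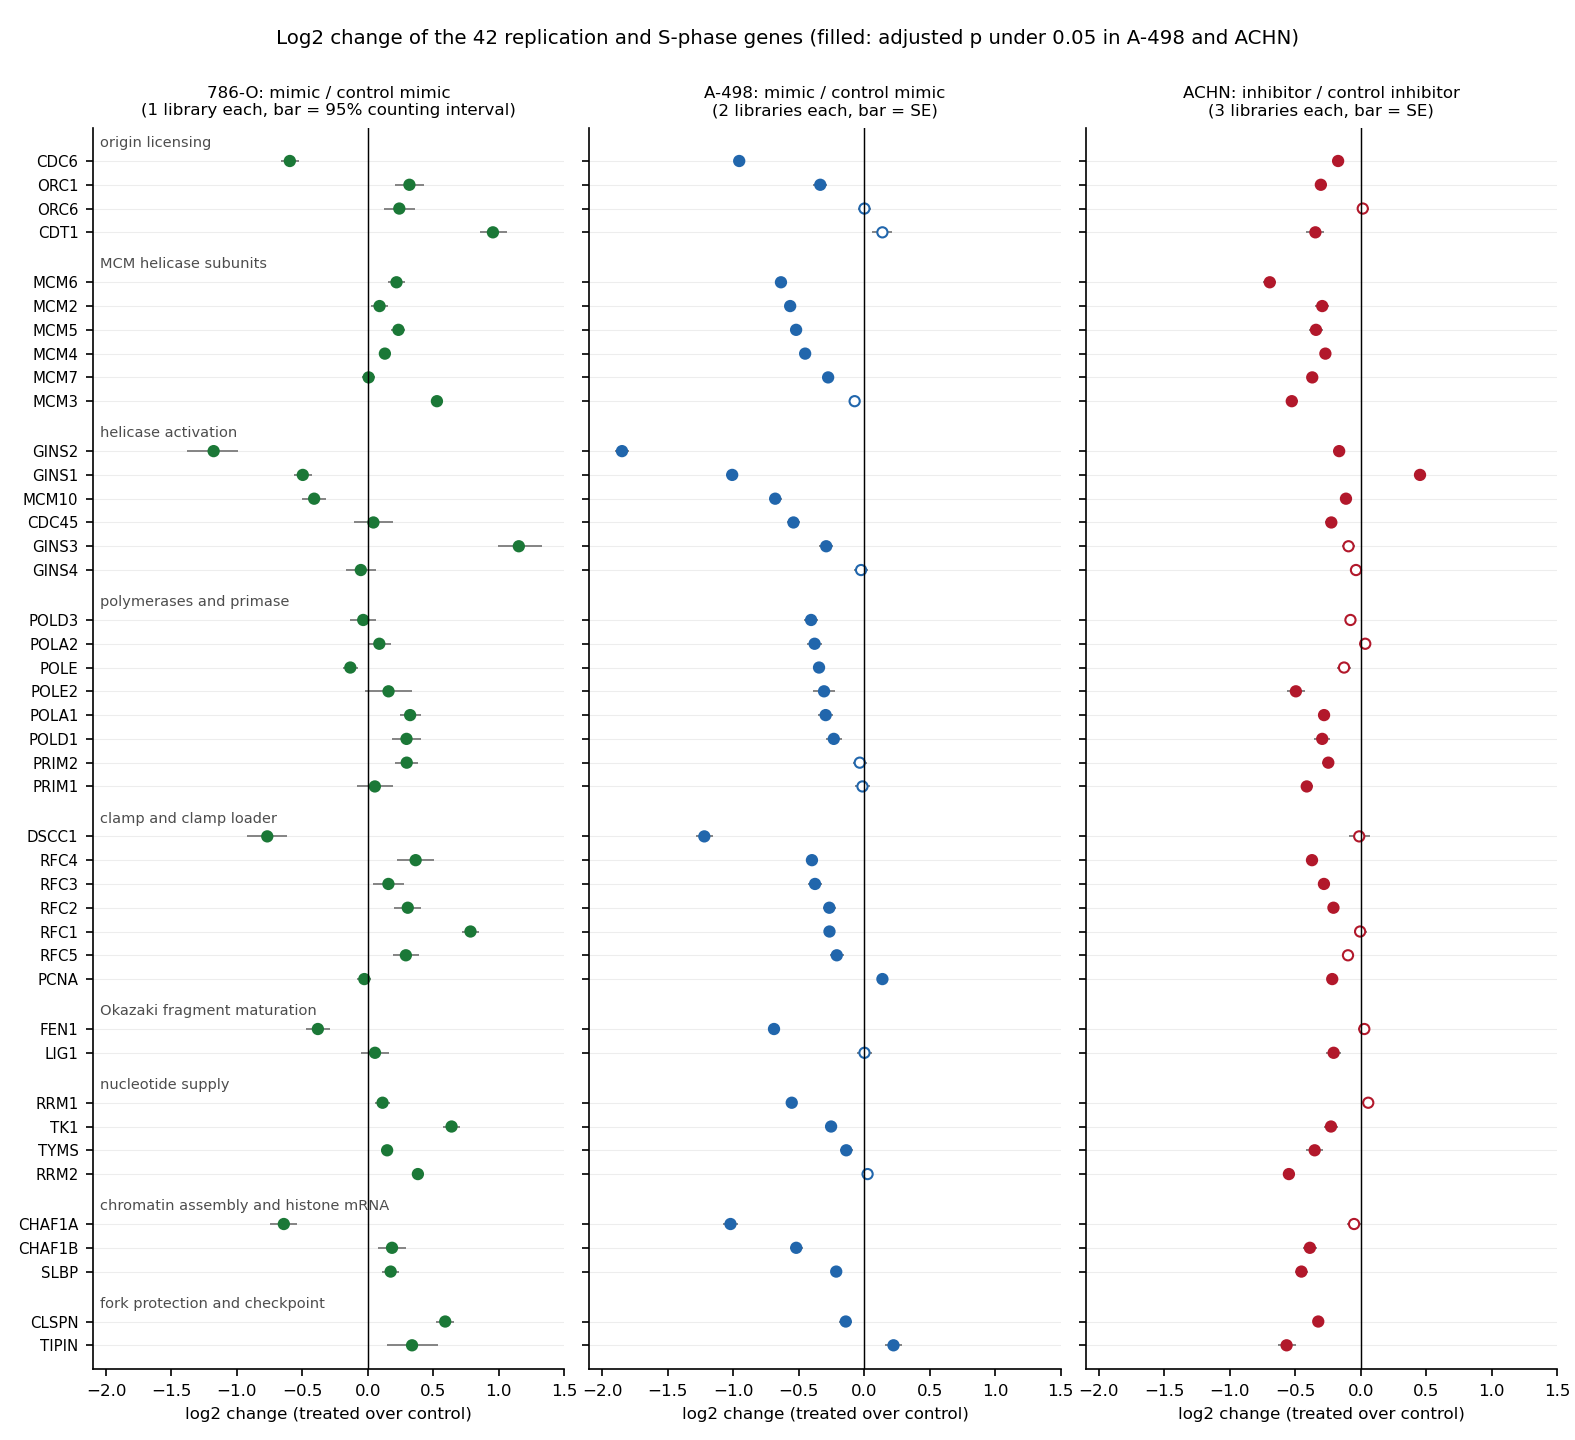
Log2 change (x axis, treated over control) of the 42 genes grouped by role (y axis) in 786-O, A-498 and ACHN; bars are 95% counting intervals in 786-O and standard errors in A-498 and ACHN, and filled points in A-498 and ACHN passed the test. Most A-498 and ACHN points lie left of 0, and GINS2 in A-498 is the farthest at -1.85.

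The 4 origin licensing genes did not move as 1 block. CDC6, the ATPase that helps load the MCM ring, was measured at 105 and 105 CPM in the A-498 controls and 53.8 and 54.5 CPM with the mimic, and at 91.4 and 60.5 CPM in 786-O. Its mimic libraries were below the controls in both lines, with log2 changes of -0.96 ± 0.043 in A-498 and -0.60 [-0.67 to -0.53] in 786-O. Here and below, a log2 change in A-498 or ACHN is given ± its standard error, and a 786-O ratio with its 95% counting interval in brackets. In ACHN it was at 125, 120.5 and 131 CPM in controls and 111, 108 and 115 CPM with the inhibitor, a smaller change of -0.17 ± 0.048 in the same direction as the mimic; without ACHN control replicate 3 this call was lost (-0.15).

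CDT1, the partner of CDC6 in loading, had another pattern. In 786-O it was at 26.2 CPM in the control and 50.8 CPM with the mimic, a log2 ratio of 0.96 [0.85 to 1.06]. In A-498 its libraries overlapped, at 24.4 and 21.96 CPM in controls and 23.7 and 27.4 CPM with the mimic. It was not called there (0.14 ± 0.076), but was called higher on library size scaling (0.22) and without control replicate 1 (0.21) or mimic replicate 1 (0.23). The ACHN libraries held 30.2, 27.7 and 30.8 CPM of CDT1 in controls and 20.96, 25.96 and 22.98 CPM with the inhibitor (-0.35 ± 0.069). ORC1, the ATPase subunit of the origin recognition complex, was called lower in A-498 (-0.34 ± 0.055) and in ACHN (-0.30 ± 0.046). Its levels were 40.1 and 38.1 CPM against 31.7 and 30.2 CPM in A-498, 41.1, 41.9 and 41.6 CPM against 33.1, 32.98 and 34.9 CPM in ACHN, and 26.5 against 33.1 CPM in 786-O, where its ratio was above 0 (0.32 [0.21 to 0.43]). ORC6, the smallest subunit of the complex, was called in neither line (0.0014 in A-498 and 0.016 in ACHN).

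The MCM2 to MCM7 genes encode the 6 subunits of the helicase ring. In ACHN 6 of 6 were called lower, in A-498 5 of 6, and in 786-O all 6 ratios were above 0. MCM2 was at 179 and 168 CPM in the A-498 controls and 116 and 118 CPM with the mimic (-0.57 ± 0.042). In ACHN MCM2 was at 169, 175 and 186 CPM in controls and 134, 153 and 145 CPM with the inhibitor (-0.29 ± 0.052), and in 786-O at 76.3 and 81.2 CPM. The treated libraries were below the controls in both replicated lines without overlap, and slightly above in 786-O (0.09 [0.022 to 0.16]).

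MCM5 was similar, at 142 and 130.5 CPM against 93.6 and 96.2 CPM in A-498, 118, 120 and 128 CPM against 89.04, 104 and 95.5 CPM in ACHN, and 117 against 137 CPM in 786-O. Its log2 changes were -0.52 ± 0.046, -0.34 ± 0.056 and 0.23 [0.18 to 0.29] in A-498, ACHN and 786-O. MCM7, whose introns hold the miR-106b to miR-25 cluster, was at 402 and 374 CPM in A-498 controls and 319.8 and 321 CPM with the mimic, and at 500.4, 492 and 526 CPM in ACHN controls and 384, 409.9 and 381 CPM with the inhibitor. Its log2 changes were -0.28 ± 0.04 and -0.37 ± 0.041, and it did not differ beyond counting error in 786-O (158 and 158 CPM).

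MCM6 had the lowest value of the group in ACHN. It was at 127, 116 and 124 CPM in the ACHN controls and 73.4, 74.2 and 79.8 CPM with the inhibitor, a log2 change of -0.69 ± 0.05. In A-498 it was at 197 and 199 CPM in controls and 128 and 126 CPM with the mimic, a change of almost the same size (-0.64 ± 0.037), whereas 786-O had 74.4 and 86.6 CPM. MCM3 was at 177, 170 and 183 CPM in ACHN controls and 118, 124 and 126 CPM with the inhibitor (-0.53 ± 0.046), and at 153 and 221 CPM in 786-O (0.53 [0.48 to 0.57]). In A-498 its 146 and 138 CPM in controls and 134 and 136 CPM with the mimic gave no call (-0.073 ± 0.041), but it was called lower without control replicate 3 (-0.12). MCM4 had log2 changes of -0.45 in A-498 and -0.27 in ACHN, both called lower, and a ratio of 0.13 in 786-O.

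The 6 genes of helicase activation included GINS2, the gene furthest below control with the mimic in A-498 and 786-O, and GINS4, which had no call in A-498 or ACHN. GINS2 (also known as PSF2), a subunit of the tetramer that joins CDC45 to the MCM ring, was at 64.3 and 63.7 CPM in the A-498 controls and 18.1 and 17.4 CPM with the mimic. The mimic libraries were below the controls, with a log2 change of -1.85 ± 0.053, the lowest of the 42 genes in that line. In 786-O it was at 15.8 CPM in the control and 6.95 CPM with the mimic, again the lowest of the 42, at -1.18 [-1.38 to -0.99]. In ACHN it was at 59.3, 56.1 and 58.1 CPM in controls and 50.4, 50.9 and 53.5 CPM with the inhibitor, a small change of the same sign (-0.16 ± 0.043) whose call was lost without control replicate 1 (-0.15).

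GINS1 (PSF1), which holds the seed match printed above was the 1 gene of the 42 called below control with the mimic in A-498 and above control with the inhibitor in ACHN. PCNA and TIPIN were called the other way round, above control in A-498 and below it in ACHN. Both A-498 calls were lost without either mimic library, in fits that held 1 mimic library against 2 controls. The log2 changes in those fits were 0.15 and 0.12 for PCNA and 0.22 each for TIPIN. GINS1 was at 84.05 and 84.2 CPM in the A-498 controls and 41.1 and 42.5 CPM with the mimic (-1.01 ± 0.046), and at 94.8 and 67.2 CPM in 786-O (-0.50 [-0.56 to -0.43]). The ACHN libraries had 56.9, 53.7 and 55.5 CPM in controls and 76.1, 72.1 and 79.1 CPM with the inhibitor (0.45 ± 0.047). The treated libraries were thus below the controls in both mimic lines and above them in the inhibitor line, with no overlap in A-498 or ACHN.

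GINS3 (PSF3) had the highest ratio of the group in 786-O, at 9.67 CPM in the control and 21.6 CPM with the mimic (1.15 [0.99 to 1.33]). In A-498 it went the other way, at 31.9 and 32.7 CPM in controls and 26.1 and 26.7 CPM with the mimic (-0.29 ± 0.055), and in ACHN it was not called (-0.093 ± 0.05). GINS4 (SLD5) was called in neither A-498 nor ACHN. The 4 subunits of 1 complex therefore had log2 changes from -1.85 to -0.024 in A-498. Their 786-O ratios spanned -1.18 to 1.15.

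CDC45, the helicase cofactor, was at 46.1 and 44.7 CPM in A-498 controls and 31.4 and 30.9 CPM with the mimic (-0.54 ± 0.051), and at 37.3, 36.95 and 38.1 CPM in ACHN controls and 31.7, 32.1 and 32.3 CPM with the inhibitor (-0.22 ± 0.046). In 786-O its 16.2 and 16.7 CPM did not differ beyond counting error. MCM10, which binds the helicase as it starts to unwind, was at 55.8 and 54.4 CPM in A-498 controls and 33.6 and 35.2 CPM with the mimic (-0.68 ± 0.051), and at 52.5 and 39.5 CPM in 786-O (-0.41 [-0.50 to -0.32]). It was lower in both mimic lines. In ACHN it was at 54.04, 54.8 and 54.4 CPM in controls and 50.9, 49.2 and 50.8 CPM with the inhibitor (-0.11 ± 0.041), and this call was lost when any 1 of the 6 libraries was left out (values from -0.13 to -0.10).

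**Figure D3:**
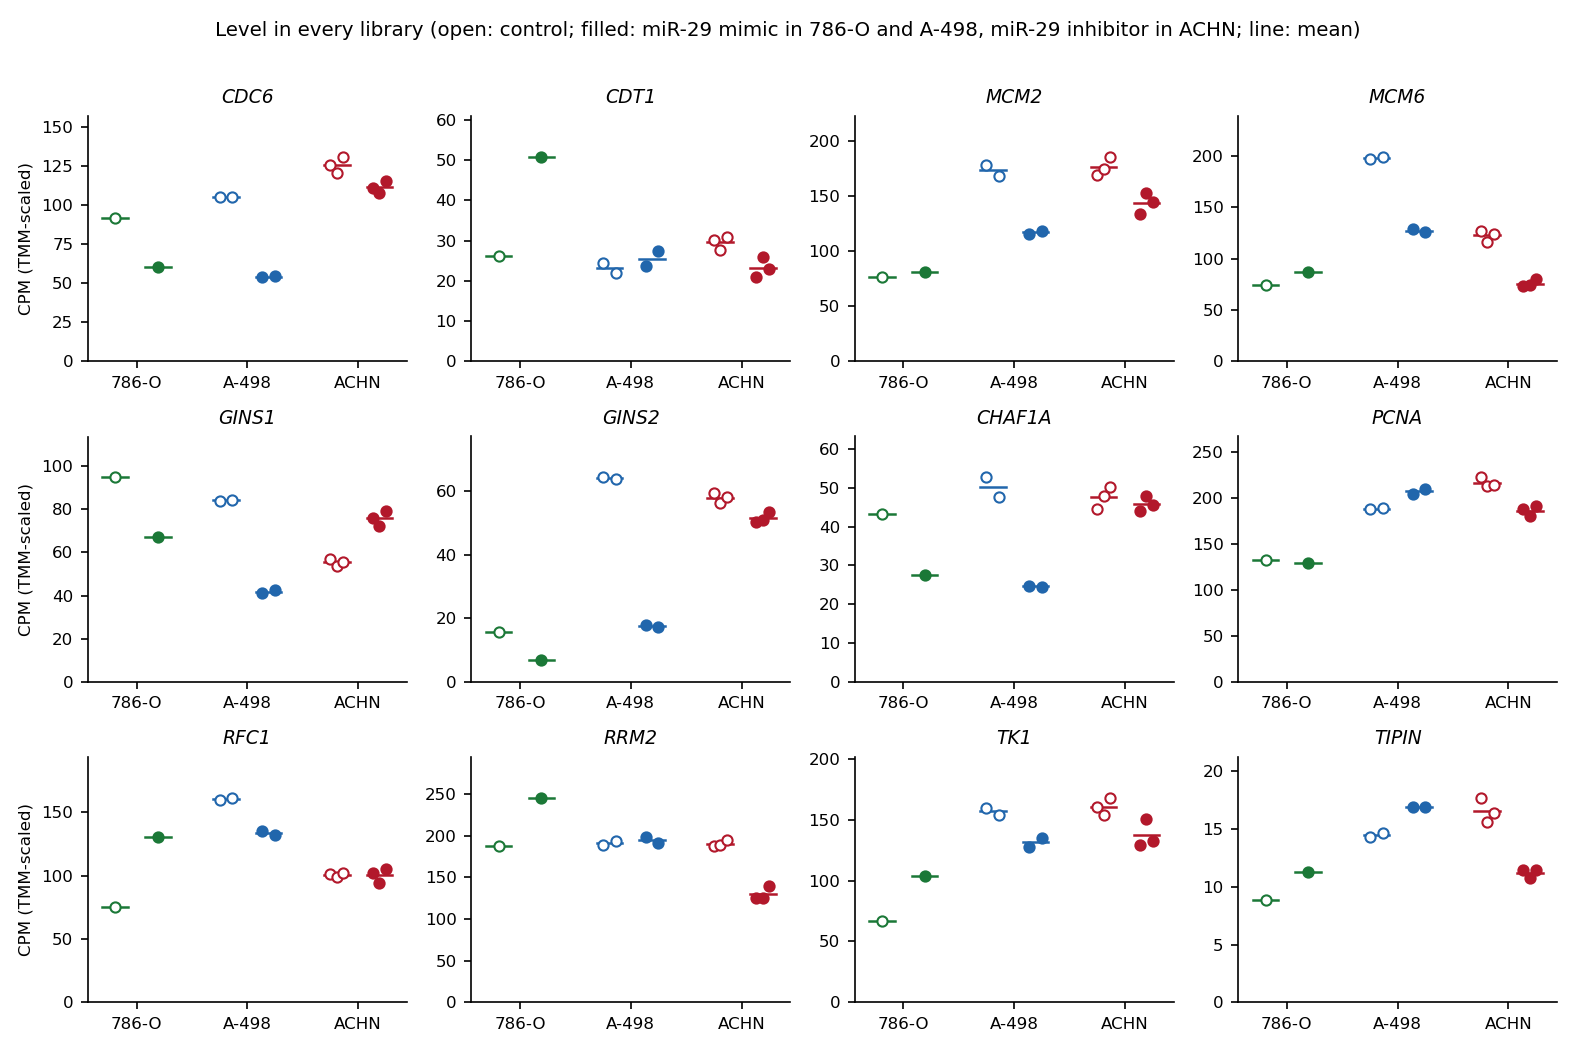
Level of 12 of the genes in every library (y axis, TMM-scaled CPM from 0) for control (open) and treated (filled) cells of each line (x axis), with the group mean as a line. In A-498 the filled points of GINS2 lie between 17.4 and 18.1 CPM, below both controls, and in ACHN the filled points of GINS1 lie above the open ones.

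Of the 8 genes of polymerases and primase, 6 were called lower in A-498 and 5 in ACHN. POLA1, the catalytic subunit of polymerase alpha, was at 38.9 and 41.3 CPM in A-498 controls and 33.5 and 31.8 CPM with the mimic (-0.29 ± 0.055), at 44.4, 42.2 and 44.05 CPM in ACHN controls and 36.2, 35.4 and 35.9 CPM with the inhibitor (-0.28 ± 0.045), and at 50.2 and 62.8 CPM in 786-O (0.32 [0.24 to 0.41]). Treated libraries were thus lower in A-498 and ACHN and higher in 786-O. POLE2, a non-catalytic subunit of polymerase epsilon, was at 19.1, 16.7 and 17.3 CPM in ACHN controls and 13.2, 11.7 and 12.7 CPM with the inhibitor (-0.50 ± 0.071). In A-498, where its level was low, it was at 8.33 and 8.93 CPM in controls and 6.89 and 7.07 CPM with the mimic (-0.31 ± 0.087), a call that DESeq2 did not give. In 786-O it was at 11.1 and 12.3 CPM, with a counting interval that held 0.

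POLD3, a subunit of polymerase delta, was lower in A-498, at 33.6 and 34.9 CPM in controls and 25.4 and 26.3 CPM with the mimic (-0.41 ± 0.056). It was not called in ACHN (-0.078 ± 0.044), at 50.4, 52.1 and 51.3 CPM in controls and 46.7, 49.8 and 49.1 CPM with the inhibitor, and was at 37.7 and 36.8 CPM in 786-O. POLD1, the catalytic subunit of polymerase delta, was called lower in A-498 (-0.23) and ACHN (-0.29), and the A-498 call was lost without mimic replicate 1 (-0.17). POLE, the catalytic subunit of polymerase epsilon, was called lower in A-498 (-0.35); in ACHN its -0.13 was not called, but became a call on library size scaling (-0.14), with DESeq2 (-0.14), without control replicate 1 (-0.16) and without inhibitor replicate 2 (-0.19). POLA2, the regulatory subunit of polymerase alpha, was called lower in A-498 alone (-0.38, against 0.035 in ACHN). The primase subunits PRIM1 and PRIM2 were called lower in ACHN (-0.41 and -0.25) and not in A-498 (-0.014 and -0.034). Here and for every other gene, whether an effect differs between the lines was not tested.

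The 7 genes of the clamp and its loaders included PCNA, which went against most of the group in A-498. PCNA, the sliding clamp itself, was at 188 and 189 CPM in the A-498 controls and 204 and 209.9 CPM with the mimic, so it was slightly higher while most of the group was lower (0.14 ± 0.037). That call was lost without mimic replicate 1 (0.15) or mimic replicate 2 (0.12). In ACHN PCNA was at 222, 213 and 214 CPM in controls and 187, 179.7 and 191 CPM with the inhibitor (-0.22 ± 0.043), below the controls without overlap. In 786-O it was at 132 and 129.6 CPM, which did not differ beyond counting error.

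RFC1, the large subunit of the clamp loader, was at 75.5 CPM in the 786-O control and 130 CPM with the mimic (0.78 [0.72 to 0.85]). In A-498 it was at 159.6 and 161 CPM in controls and 135 and 132 CPM with the mimic (-0.27 ± 0.038), a change of opposite sign, and in ACHN its libraries overlapped, at 101, 99.2 and 102 CPM in controls and 102, 94.2 and 105 CPM with the inhibitor. RFC3, a small subunit of the loader, was at 52.4 and 56.7 CPM against 41.99 and 42.1 CPM in A-498 (-0.38 ± 0.052), at 58.5, 54.9 and 54.99 CPM against 46.6, 44.1 and 47.9 CPM in ACHN (-0.28 ± 0.046), and at 25.96 against 28.96 CPM in 786-O (0.16 [0.042 to 0.27]). The other small subunits RFC2, RFC4 and RFC5 had log2 changes of -0.27, -0.40 and -0.21 in A-498, all called lower, and ratios of 0.31, 0.37 and 0.29 in 786-O. The RFC5 call was lost without mimic replicate 2 (-0.19) and on library size scaling (-0.13). In ACHN RFC2 (-0.21) and RFC4 (-0.37) were called lower and RFC5 (-0.097) was not.

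DSCC1, a subunit of the alternative clamp loader that acts with cohesion factors, was at 30.4 and 29.7 CPM in the A-498 controls and 12.5 and 13.3 CPM with the mimic (-1.22 ± 0.064), and at 21.8 and 12.8 CPM in 786-O (-0.77 [-0.92 to -0.62]). It was lower in both mimic lines, and its ACHN libraries overlapped, at 13.2, 11.8 and 12.3 CPM in controls and 11.8, 11.5 and 13.7 CPM with the inhibitor.

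Of the 2 Okazaki fragment genes, FEN1 was called in A-498 and LIG1 in ACHN. FEN1, the flap nuclease, was at 67.4 and 65.7 CPM in A-498 controls and 41.99 and 40.5 CPM with the mimic (-0.69 ± 0.048), and at 47.3 and 36.3 CPM in 786-O (-0.38 [-0.48 to -0.29]). In ACHN it overlapped, at 74.3, 75.9 and 81.3 CPM in controls and 77.2, 80.1 and 78.6 CPM with the inhibitor. LIG1, the ligase that seals the fragments, was called lower in ACHN (-0.21) and was at 0.0018 in A-498 with no call.

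Among the 4 nucleotide-supply genes, the 2 chains of ribonucleotide reductase, which makes deoxyribonucleotides were each called in 1 line. RRM1, the large chain, was at 249 and 255 CPM in the A-498 controls and 172 and 172 CPM with the mimic (-0.55 ± 0.037), while in ACHN it was at 165, 158 and 160.4 CPM in controls and 167, 164 and 171 CPM with the inhibitor, with no call (0.058 ± 0.043). RRM2, the chain that accumulates in S phase, was at 188, 189 and 195 CPM in the ACHN controls and 126, 126 and 139 CPM with the inhibitor (-0.55 ± 0.048). In A-498 RRM2 overlapped, at 189 and 193 CPM in controls and 198 and 191 CPM with the mimic, with no call except on library size scaling (0.10). So RRM1 was lower in A-498 and not called in ACHN, and RRM2 was lower in ACHN and not called in A-498. In 786-O both ratios were above 0, at 116 and 126 CPM for RRM1 and 188 and 245 CPM for RRM2.

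TYMS, the thymidylate synthase, was at 90.02, 76.3 and 77.7 CPM in ACHN controls and 65.1, 58.4 and 67.7 CPM with the inhibitor (-0.35 ± 0.063). In A-498 it was at 70.03 and 67.4 CPM in controls and 64.1 and 60.8 CPM with the mimic (-0.14 ± 0.048), a call lost without mimic replicate 1 (-0.19) or replicate 2 (-0.10) and on library size scaling (-0.061), and in 786-O it was at 162 and 179.9 CPM. TK1, the salvage kinase for thymidine, was at 159.8 and 154 CPM in A-498 controls and 128 and 135 CPM with the mimic (-0.25 ± 0.042), and at 160.3, 154 and 168 CPM in ACHN controls and 129, 150.5 and 132 CPM with the inhibitor (-0.23 ± 0.055). In 786-O it was higher in the mimic library, at 66.8 and 104 CPM (0.64 [0.57 to 0.71]).

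CHAF1A and CHAF1B, the large and the middle subunit of the chromatin assembly factor that deposits histones behind the fork, were both called lower in A-498. CHAF1A was at 52.7 and 47.5 CPM in A-498 controls and 24.8 and 24.5 CPM with the mimic (-1.02 ± 0.059), and at 43.2 and 27.6 CPM in 786-O (-0.64 [-0.75 to -0.54]). In ACHN it overlapped, at 44.4, 47.9 and 50.2 CPM in controls and 44.1, 47.9 and 45.7 CPM with the inhibitor. CHAF1B was lower in both replicated lines, at 53.3 and 53.3 CPM against 36.99 and 37.4 CPM in A-498 (-0.52 ± 0.048) and 30.3, 30.6 and 32.5 CPM against 22.8, 23.5 and 25.1 CPM in ACHN (-0.39 ± 0.054), and was at 29.8 and 33.9 CPM in 786-O. SLBP, which binds the stem-loop of histone mRNAs, was at 101, 94.5 and 102 CPM in ACHN controls and 70.2, 71.01 and 75.9 CPM with the inhibitor (-0.45 ± 0.049). In A-498 it was at 87.8 and 85.8 CPM in controls and 75.96 and 73.7 CPM with the mimic (-0.21 ± 0.043), and in 786-O at 76.3 and 86.2 CPM.

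CLSPN, the adaptor that links stalled forks to the checkpoint kinase, was at 71.4, 73.2 and 75.9 CPM in ACHN controls and 57.8, 58.6 and 59.7 CPM with the inhibitor (-0.32 ± 0.044). It was higher in the 786-O mimic library, at 61.97 and 93.4 CPM (0.59 [0.52 to 0.66]), and slightly lower in A-498, at 41.1 and 40.4 CPM in controls and 36.8 and 37.1 CPM with the mimic (-0.14 ± 0.05). That A-498 call was lost with DESeq2 (-0.15), on library size scaling (-0.065) and without mimic replicate 1 (-0.14) or replicate 2 (-0.15). TIPIN, a fork protection protein, was lower in ACHN, at 17.7, 15.6 and 16.4 CPM in controls and 11.4, 10.8 and 11.4 CPM with the inhibitor (-0.57 ± 0.069). In A-498 it was higher, at 14.3 and 14.7 CPM in controls and 16.9 and 16.9 CPM with the mimic (0.22 ± 0.066), with the call lost by DESeq2 (0.21) and without mimic replicate 1 or replicate 2 (0.22 each). In 786-O it was at 8.90 and 11.3 CPM.

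The calls in A-498 and ACHN were set side by side. Of the 42, 21 were called lower in both lines, 11 in A-498 and not in ACHN, 8 in ACHN and not in A-498, and 2 (GINS4 and ORC6) were called in neither. Of all 16708 genes tested in both lines, 427 (2.56%) were called lower in both, 4506 (27%) in A-498 alone and 2074 (12.4%) in ACHN alone. The 42 were selected on these contrasts, so nothing is read from the distance to those shares. Of the 32 called lower in A-498, 23 had a 786-O ratio above 0 and 9 below 0. Those 9 were GINS2, DSCC1, CHAF1A, GINS1, CDC6, FEN1, MCM10, POLD3 and POLE. Their ACHN log2 changes ran from -0.17 for CDC6 to 0.45 for GINS1, whereas the 5 lowest in ACHN were MCM6, TIPIN, RRM2, MCM3 and POLE2, all with a 786-O ratio above 0. Across the 42 genes, the log2 changes of 786-O and A-498 had Pearson's r = 0.75 (Spearman's rho = 0.56). Over the 15898 genes tested in all 3 lines, r was 0.38 (rho = 0.365). The changes of A-498 and ACHN had r = -0.38 (rho = -0.36) against -0.29 (rho = -0.294) over all genes. Those of 786-O and ACHN had r = -0.36 (rho = -0.44) against -0.36 (rho = -0.35). These are correlations across genes, which are not independent replicates, since all points of a line come from the same libraries. They too use the changes by which the 42 were chosen, so nothing is read from the distance to the values over all genes. The comparisons share no library between lines.

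**Figure D4:**
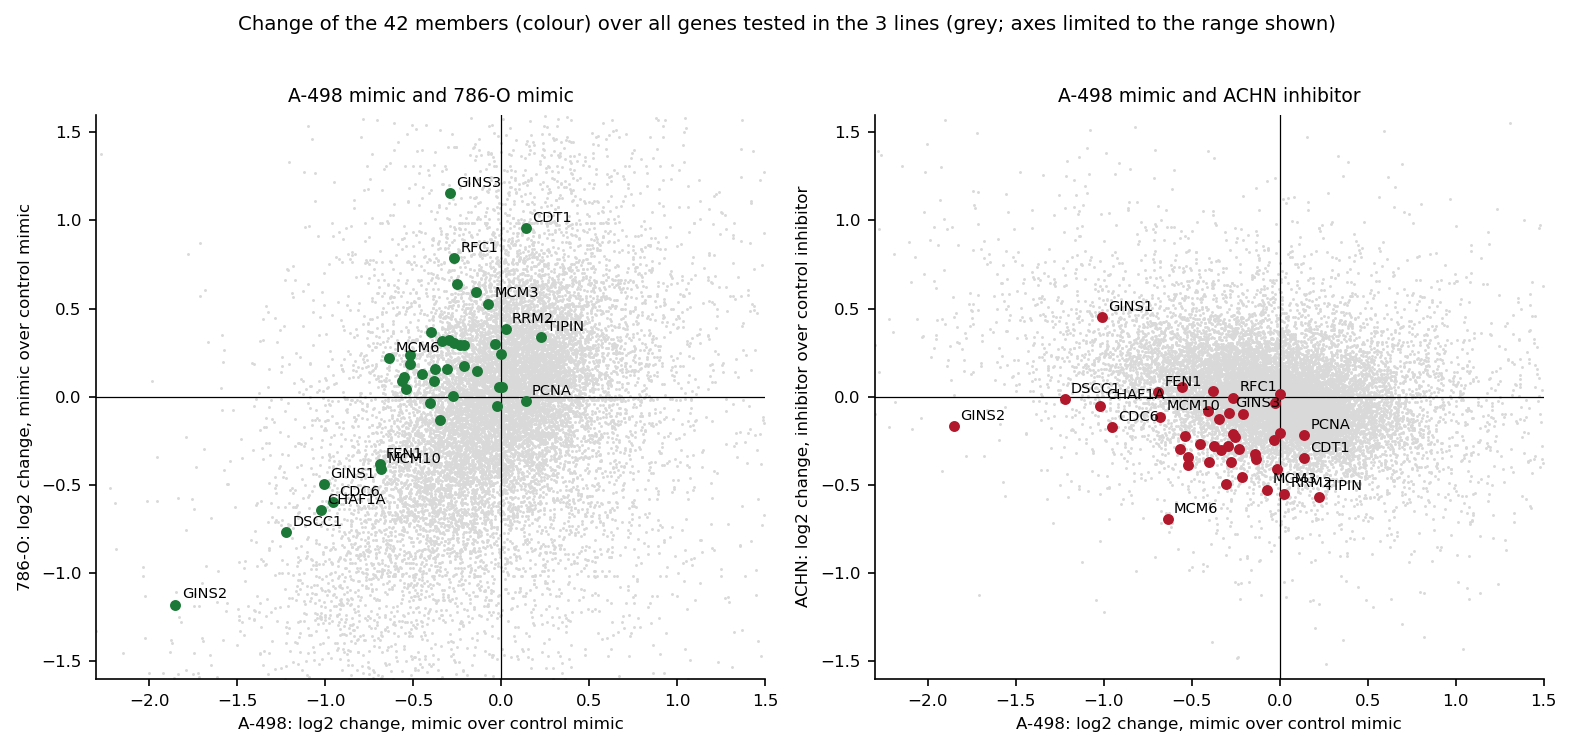
Log2 change in A-498 with the mimic (x axis) against that in 786-O with the mimic (left) or in ACHN with the inhibitor (right) for the 42 genes (colour) over all genes tested in the 3 lines (grey). In the left plot GINS2, DSCC1, CHAF1A, GINS1 and CDC6 lie lowest on both axes, and in the right plot GINS1 is the member highest on the ACHN axis.

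The 8 genes with the shorter GGTGCT match, a list read from the sequence and described after the changes were seen, were GINS2, DSCC1, CHAF1A, GINS1, MCM10, RFC4, GINS3 and TYMS. In A-498 their log2 changes were -1.85, -1.22, -1.02, -1.01, -0.68, -0.40, -0.29 and -0.14 in that order, and in 786-O -1.18, -0.77, -0.64, -0.50, -0.41, 0.37, 1.15 and 0.15. The first 4 were thus the 4 lowest of the 42 in A-498. This order uses the changes by which the 42 were chosen, so nothing is read from it. Whether the matches took part in the changes was not tested. In ACHN the same 8 had -0.16, -0.011, -0.051, 0.45, -0.11, -0.37, -0.093 and -0.35. CDC6, the fifth lowest in A-498, held no match of either length. Among all genes with an average of at least 5 CPM, those with the shorter match alone had a median log2 change of -0.16 in A-498, -0.19 in 786-O and 0.040 in ACHN.

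Another 61 genes of replication, which are not among the 42, were examined as neighbours in the pathway. With the mimic in A-498, 31 were called lower (50.8%) and 11 higher (18%; 7 without mimic replicate 1), with a median log2 change of -0.17. In ACHN 30 were called lower (49.2%) and 4 higher (6.56%; 7 without the filter on low counts), with a median of -0.13, and in 786-O 3 were at least 1.5-fold lower and 2 higher, with a median of 0.022. Of all genes tested, 27% were called lower and 25.5% higher in A-498, and 14.4% and 17.3% in ACHN. In 786-O, 19.2% of all genes were at least 1.5-fold lower and 15.4% higher. This list too was drawn up with earlier results of these data known, so nothing is read from the distance to those shares. The adjusted p-values given below for its genes are likewise a description and not independent evidence.

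RPA1, the large subunit of the single-strand DNA binding protein, had the lowest A-498 value of this list, at 150.3 and 155 CPM in controls and 72.3 and 72.8 CPM with the mimic (-1.07 ± 0.041, edgeR adjusted p = 5.12e-11). In ACHN it was the highest, at 144, 139.5 and 144 CPM in controls and 194, 195 and 200.1 CPM with the inhibitor (0.46 ± 0.042, edgeR adjusted p = 1.31e-07), and in 786-O it was at 137 and 63.4 CPM. It was below the controls with the mimic in both lines and above them with the inhibitor. CDK2, the kinase that starts S phase, had the same order, at 91.9 and 94.9 CPM in A-498 controls and 48.4 and 47.9 CPM with the mimic (-0.96 ± 0.045, edgeR adjusted p = 4.42e-10). In ACHN CDK2 was at 149.9, 152 and 161 CPM in controls and 172, 173 and 178 CPM with the inhibitor (0.18 ± 0.044, edgeR adjusted p = 0.00502). CDK2 held 1 TGGTGCT match in its 3′ UTR, and RPA1 held the shorter match only. The 11 of the 61 genes with a TGGTGCT match did not share 1 direction in A-498. CDC7, TICRR, POLE3, RNASEH2C, NASP and CDK2 were called lower there with the mimic. DBF4 and CMPK1 were called higher, and CHTF8, SAMHD1 and UMPS were not called.

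PCLAF, a PCNA-binding factor of low level here, was at 8.44 and 10.2 CPM in A-498 controls and 4.68 and 4.57 CPM with the mimic (-1.01 ± 0.11, edgeR adjusted p = 1.72e-06). RRM2B, the p53-inducible small chain of ribonucleotide reductase, was the highest in A-498, at 294 and 310.5 CPM in controls and 654 and 626 CPM with the mimic (1.08 ± 0.039, edgeR adjusted p = 2.86e-11), and was not called in ACHN (0.15 ± 0.063). It was higher in A-498 while RRM1 was lower and RRM2 was not called. RPA2, the middle subunit of the RPA complex, was also higher in A-498 (0.52 ± 0.052, edgeR adjusted p = 1.1e-06), opposite to RPA1, as was CDC25A, the phosphatase that activates CDK2 (0.50 ± 0.059, edgeR adjusted p = 5.39e-06).

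In ACHN the lowest of the list was UHRF1, which recruits the maintenance DNA methyltransferase to new DNA, at 113, 115 and 127 CPM in controls and 73.5, 82.2 and 80.9 CPM with the inhibitor (-0.59 ± 0.055, edgeR adjusted p = 1.91e-07). It was also lower in A-498 (-0.36 ± 0.047, edgeR adjusted p = 1.4e-05). TONSL, a reader of new histones, and DUT, which removes dUTP, were lower in ACHN, with log2 changes of -0.47 ± 0.07 (edgeR adjusted p = 4.47e-05) and -0.45 ± 0.043 (edgeR adjusted p = 2.73e-07). ASF1B, a histone chaperone, was called lower with the mimic in A-498 (-0.58 ± 0.053) but was above control in ACHN (0.20 ± 0.045, edgeR adjusted p = 0.00209). CDC7, the kinase that fires loaded origins, held 3 TGGTGCT matches, of which those at 422 and 428 bases after the stop codon overlap. CDC7 was lower in both A-498 (-0.54 ± 0.064, edgeR adjusted p = 7.03e-06) and ACHN (-0.17 ± 0.055, edgeR adjusted p = 0.0235). TOP2A, the topoisomerase of replicating and mitotic chromosomes, was lower in A-498 (-0.29 ± 0.036, edgeR adjusted p = 1.03e-05) and not called in ACHN (-0.046 ± 0.043).

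The levels of the 42 genes in the control libraries were not used to choose them. Per kilobase of exon, PCNA, MCM7 and TK1 were the highest in ACHN, at 156 ± 4.10, 103 ± 3.81 and 88.1 ± 3.96 CPM per kb (SD, n = 3), and POLA2 and POLA1 the lowest at 4.05 ± 0.192 and 2.83 ± 0.0851 CPM per kb. These ranks depend on the union of annotated exons, which is 12006 bases for POLA2 and 15547 bases for POLA1. Without division by length, the ACHN controls had 48.06 CPM of POLA2 and 43.53 CPM of POLA1, above DSCC1 at 12.45 CPM. In A-498 PCNA was at 127 ± 0.358 CPM per kb (n = 2), TK1 at 80.5 ± 2.39 and MCM7 at 74.1 ± 3.82, while POLA1 (2.44 ± 0.0997) and POLA2 (2.34 ± 0.0983) did not differ beyond their spread. In the 786-O control library PCNA was at 95.6 CPM per kb and TYMS at 68.2, with GINS3 the lowest at 1.92.

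Between the control libraries of A-498 and ACHN, 25 of the 42 genes had the lower level in A-498 and 9 had the higher level there (edgeR, adjusted p under 0.05), with a median log2 difference of -0.23. Of all 19689 genes tested, 38.7% were called lower and 41% higher, with a median of 0.019. Furthest below ACHN were RFC5 (-1.77 ± 0.049, edgeR adjusted p = 8.25e-18), POLE (-1.38 ± 0.046, edgeR adjusted p = 1.81e-16) and PRIM1 (-1.14 ± 0.056, edgeR adjusted p = 1.49e-13). DSCC1 was the highest in A-498 (1.22 ± 0.06, edgeR adjusted p = 1.43e-13), followed by CHAF1B (0.72 ± 0.055), MCM6 (0.64 ± 0.041), RFC1 (0.62 ± 0.038), RRM1 (0.59 ± 0.036) and GINS1 (0.55 ± 0.048). Subunits of 1 complex thus differed in sign between the lines, as with RFC1 and RFC5. The cell line, the control agent and any difference in preparation cannot be told apart in this comparison.

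**Figure D5:**
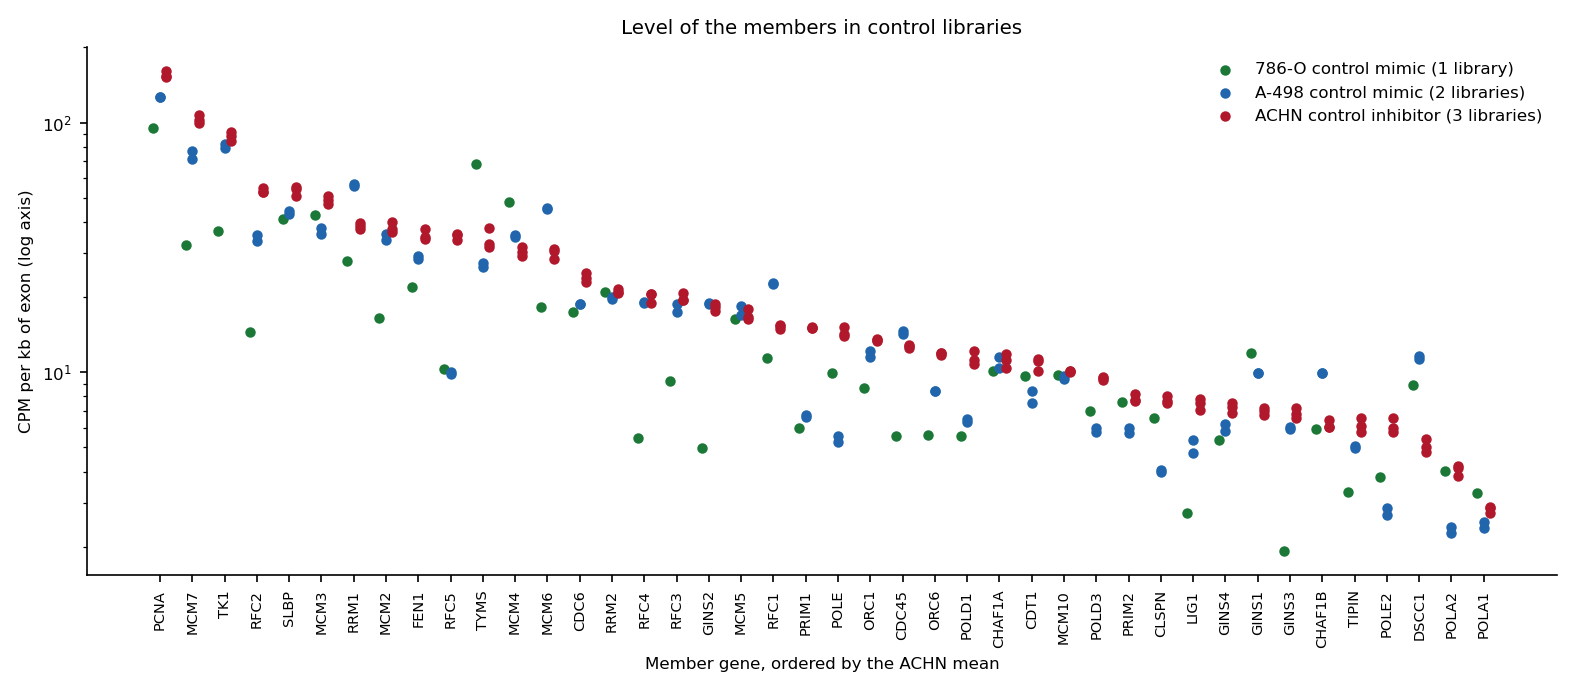
Level of the 42 genes in control libraries (y axis, CPM per kb of exon on a log axis; x axis, genes ordered by the ACHN mean), with 1 point per library of 786-O (green), A-498 (blue) and ACHN (red). PCNA is the highest in ACHN at 156 CPM per kb, and RFC5 lies lower in A-498 than in ACHN.

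Counting may affect some of these genes. For 14 of the 42, the whole gene span overlaps that of another annotated gene on the same strand. Whether exons overlap was not checked, and some partners, such as the microRNA genes of MCM7, lie in introns. A named processed pseudogene exists for 8 (FEN1, ORC1, PCNA, RFC3, RFC5, RRM2, TIPIN and TYMS). Reads could be split or lost for some of these genes, whose absolute levels are then less certain.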

How the data were processed

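RNA was sequenced from 12 libraries of 3 renal carcinoma lines. Per the labels and the study's methods, the authors made stranded libraries depleted of ribosomal RNA, aligned them to GRCh38 with HISAT2 and counted reads per Ensembl gene with HTSeq. The deposited counts are raw, for 58051 genes (56948 with a GENCODE v44 symbol). Reads assigned to no single gene (37.2% to 48.0%) stayed out of library sizes. The authors' DESeq2 tables of fold changes and p-values were not used.

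Each line was fitted by itself in edgeR 4.0.16 (R 4.3.3; quasi-likelihood, TMM, filterByExpr, no block) with a Benjamini-Hochberg threshold of 0.05. The 786-O ratio used a prior count of 2 and genes with at least 10 counts in both libraries together. Intervals of 95% cover counting error only. Replicate pairs differed by more than counting error, with a BCV of 3.83% for A-498 and 5.25% for ACHN. Alternatives were other scalings, DESeq2 1.42.0, no filter, a threshold of 0.01 and leaving out each library. In A-498 that leaves 1 library in its group, so a call can be lost there with little change in the log2 value. The scripts were tested on simulated data. Values per kb divide CPM by the union of annotated exons.

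The 42 genes and the other lists were chosen with earlier results of these data known. By rule, all members could be named, with library values for a set panel and for the 4 largest changes per line at 5 CPM or more. Of the other replication genes, the rule named the 3 largest called changes in each direction, with CDC7, RPA1, TOP2A and UHRF1. Those holding a TGGTGCT match were listed in addition.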

Additional observations from a re-analysis of the deposited data

Results flagged for a closer look

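For 21 of the 42 genes the mimic libraries of A-498 both lay below both controls, while the 786-O ratio had a counting interval above 0, so the mimic libraries stood on opposite sides of their controls in the 2 lines. Of all 17473 genes measured in both lines, 1233 (7.06%) met the same condition, and 1302 (7.45%) met it with both signs turned; nothing is read from the distance, since the genes were chosen with these results known. With 1 library per group in 786-O, the difference was not tested. Reads assigned to no single gene made up 45.7% and 48.0% in the 786-O libraries and 37.2% to 39.0% in those of A-498. The cell line and any difference in preparation cannot be told apart here. The values below are the 786-O log2 ratio minus the A-498 log2 change.

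Among the helicase and origin genes the difference was 0.656 for MCM2, 0.602 for MCM3, 0.582 for MCM4, 0.755 for MCM5, 0.856 for MCM6, 1.44 for GINS3 and 0.654 for ORC1. Among the clamp loader genes it was 1.05 for RFC1, 0.572 for RFC2, 0.534 for RFC3, 0.765 for RFC4 and 0.501 for RFC5. For polymerase genes it was 0.618 for POLA1, 0.467 for POLA2 and 0.528 for POLD1. For nucleotide-supply genes it was 0.667 for RRM1, 0.285 for TYMS and 0.893 for TK1, and for CHAF1B, SLBP and CLSPN it was 0.705, 0.389 and 0.733. MCM3 was not called in A-498 (-0.07). The A-498 calls of TYMS (-0.14) and CLSPN (-0.14) were lost on library size scaling (-0.061 and -0.065), at an adjusted p under 0.01, and without either mimic library (-0.19 and -0.10 for TYMS, -0.14 and -0.15 for CLSPN), and that of CLSPN also with DESeq2 (-0.15). No group had more than 3 libraries, so single libraries standing apart were not looked for.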

How the results depend on the processing

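No direction of a summary value was reversed under any alternative run. The number of genes called higher in A-498 (2 of the 42) was 4 on library size scaling, 1 with DESeq2 and 1 at an adjusted p under 0.01. The median log2 change in A-498 (-0.30) was -0.22 on library size scaling, which moved the median of all genes to 0.081, and -0.33 without a filter on low counts. Other replication genes called higher in ACHN (4) numbered 7 without the filter. At 2-fold in 786-O, 1 member was lower and 1 higher, and of the other replication genes 1 was lower and 0 higher. With the match of 6 bases, 8 genes held a miR-29 site.

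Leaving out each library, A-498 had 29 to 33 of the 42 called lower and 0 to 3 higher (0 without mimic replicate 2, 1 without mimic replicate 1), with medians of -0.32 to -0.31. ACHN had 27 to 29 lower and 1 higher, with medians of -0.27 to -0.23. Of the other replication genes, A-498 had 29 to 35 lower and 7 to 12 higher (7 without mimic replicate 1), and ACHN 22 to 31 lower and 3 to 6 higher. Between control libraries, 24 to 26 of the 42 were lower in A-498 and 8 to 9 higher, with medians from -0.27 to -0.21, and other replication genes from 33 to 37 and 12 to 13.

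In ACHN the fit with a replicate block gave 29 genes lower and 1 higher, and a median of -0.24. The counts equal those without it, but MCM10 lost its call (-0.11) and POLE gained one (-0.13). Same-numbered libraries had correlations of 0.175, -0.272 and -0.117, and not every library correlated best with its own number. For A-498 and 786-O no paired analysis was possible because the A-498 groups share only 1 number and 786-O has 1 library per group. Which replicate numbers the left-out A-498 libraries carried is not stated. The values of 786-O are limited by that single library per group, and 8 of the 42 counting intervals held 0.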
